A study of Mus musculus with 12 samples.

Results

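The 9 genes described here, Gdf15, Stc1, Stc2, Vegfa, Vgf, Fst, Inhba, Hbegf and Areg, encode secreted stress hormones and growth factors, and are 9 of the 55536 mouse gene IDs in the count tables. They were selected on their known roles, with the halofuginone-against-control results of these same libraries already known. Their differences between halofuginone and control cells, in RNA, in footprints and in the ratio of the 2, are therefore given as a description without a test, and support nothing. All 9 are reported, whatever their values.

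The cells were MEF, fibroblasts cultured from mouse embryos. The HF cells had 6 h with 100 nM halofuginone (HF) in high-glucose medium with dialyzed serum, and the control cells 6 h in the same medium without it. HF blocks the prolyl-tRNA synthetase activity of EPRS, so that uncharged tRNA for proline builds up and the eIF2 kinase GCN2 is activated. The series concerns GCN2 and mTORC1 under nutrient stress. Total RNA and ribosome footprints (RPF, the pieces of mRNA that ribosomes protect from nuclease) gave 4 groups of 3 libraries each, RNA HF, RNA control, RPF HF and RPF control. The labels give no genotype, strain or embryonic age, and do not say whether replicates were separate cultures. A p-value below therefore speaks only of the spread among 3 libraries a group, and that spread may be technical. In such bulk samples, fewer cells that make a transcript and less of it per cell cannot be told apart.

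RNA libraries held 1017651 to 1697554 counts in HF cells and 718096 to 1295434 in control cells, and footprint libraries 562794 to 1958356 in HF cells and 724609 to 2527791 in control cells. Levels are CPM, counts scaled to a common library total with TMM factors. They are not divided by gene length, so levels are compared within a gene and not between genes. All 9 fibroblast markers looked up had counts in every group. Their summed level was 9360 to 9680 CPM in RNA HF and 7790 to 8160 in RNA control libraries, and 12400 to 12700 CPM in RPF HF and 16000 to 16900 in RPF control libraries. The members of this list did not move alike. Of 7 fitted in RNA, 1 rose, 4 fell and 2 did not pass (median −0.68), and of 8 fitted in footprints, 2 rose, 5 fell and 1 did not pass (median −0.62). Fn1, fibronectin, had 4830 to 5100 CPM in RNA HF and 1530 to 1560 in RNA control libraries. Without Fn1, the other 8 summed to 4520 to 4680 CPM in RNA HF and 6260 to 6610 in RNA control libraries, and to 8440 to 8610 CPM in RPF HF and 13700 to 14600 in RPF control libraries. Marker lists of endothelial cells, leukocytes, epithelium, muscle and pluripotent cells each summed to at most 5.89 CPM in any library. Of 6 neural and neuroendocrine markers, Sox10, Snap25 and Rbfox3 had 0 counts in all 12 libraries. The list summed to 9.82 to 32.5 CPM in RNA HF and 25.2 to 41.1 in RNA control libraries, and to 25.1 to 60.7 CPM in RPF HF and 63.2 to 90.7 in RPF control libraries. Most of each of these sums was Tubb3, a tubulin gene. It had 5.89 to 29 CPM in RNA HF and 16.8 to 41.1 in RNA control libraries, and 25.1 to 56.9 in RPF HF and 57.6 to 84.6 in RPF control libraries. The part of all these marker differences in the results below was not tested.

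Secreted factors of this kind let a stressed or stimulated cell act on its neighbours or on distant tissues. Amphiregulin (Areg) and heparin-binding EGF-like growth factor (Hbegf) are made as membrane-bound precursors, cut loose by ADAM proteases, and bind the EGF receptor. Inhba encodes the subunit of activin A, a ligand of the TGF-beta family that signals through Smad2 and Smad3, and follistatin (Fst) binds activin and keeps it from its receptors. Vegfa drives growth of blood vessels and is a classical target of hypoxia-inducible factors, and in several cell types also of the stress factor ATF4. Vgf is a granin-like precursor of neuropeptides, best known from neurons and neuroendocrine cells. Gdf15 is a circulating stress hormone that acts on the brain through the receptor GFRAL. Its transcription is raised by ATF4 and CHOP in many cell types. The stanniocalcins Stc1 and Stc2 are glycoproteins that inhibit the protease PAPP-A and so limit the release of insulin-like growth factors. Stc2 is a further ATF4 target known from stressed cells.

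Promoter sequence was searched for 5 of the 9 genes, from RefSeq on GRCm38.p6. The 250 bases before the start are shown for Areg, Inhba and Vegfa, which were counted higher in HF cells, and for Stc2, which had almost no counts, so that the start-proximal letters can be read beside the values. Capitals mark matches to the motifs searched, on either strand. Those were the full cAMP response element (CRE) TGACGTCA, its core TGACG, the AP-1 site TGANTCA, the composite ATF4 element (CARE) TGATGNAA, the hypoxia response core ACGTG, the TATA box TATAAA, the EGR site GCGNGGGCG and the CArG box.
Areg, chr5:91139349-91139598, plus strand: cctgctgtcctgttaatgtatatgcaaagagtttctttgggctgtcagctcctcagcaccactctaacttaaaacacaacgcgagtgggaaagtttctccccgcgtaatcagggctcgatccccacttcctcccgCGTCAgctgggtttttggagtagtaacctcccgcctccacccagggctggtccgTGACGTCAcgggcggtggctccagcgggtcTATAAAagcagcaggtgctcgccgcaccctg
Inhba, chr13:16011601-16011850, plus strand: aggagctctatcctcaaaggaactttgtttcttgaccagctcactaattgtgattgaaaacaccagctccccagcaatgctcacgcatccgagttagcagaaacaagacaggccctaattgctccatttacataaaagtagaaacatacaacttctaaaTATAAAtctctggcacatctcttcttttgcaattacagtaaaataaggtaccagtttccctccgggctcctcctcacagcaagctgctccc
Vegfa, chr17:46032378-46032627, minus strand: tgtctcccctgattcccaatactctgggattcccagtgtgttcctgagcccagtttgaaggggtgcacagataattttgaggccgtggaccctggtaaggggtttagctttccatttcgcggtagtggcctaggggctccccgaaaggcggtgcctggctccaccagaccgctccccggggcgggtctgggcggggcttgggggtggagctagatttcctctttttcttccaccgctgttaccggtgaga
Stc2, chr11:31370062-31370311, minus strand: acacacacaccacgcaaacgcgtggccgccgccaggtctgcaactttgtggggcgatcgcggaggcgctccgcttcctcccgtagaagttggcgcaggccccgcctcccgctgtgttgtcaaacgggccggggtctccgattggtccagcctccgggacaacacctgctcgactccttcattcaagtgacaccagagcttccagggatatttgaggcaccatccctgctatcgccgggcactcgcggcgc

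The Areg window held a full CRE from 61 to 54 bases before the start, which contains the core on both strands, a further core from 115 to 111 bases before the start, and a TATA box from 31 to 26. A full CRE was in 1.55% of the 250-base windows of 32851 mouse starts, the core in 17.8% and TATAAA in 12.4%. The Inhba window, which belongs to a start inside the annotated span of the gene, held TATAAA from 91 to 86 bases before the start. In the Vegfa and Stc2 windows shown, and in the window before the more upstream of the 2 Gdf15 starts, none of the 8 motifs was found. Vegfa and Gdf15 each have a further start inside the gene. The window of that Vegfa start held the hypoxia core from 211 to 207 bases before it and the CRE core from 209 to 205, and that of Gdf15 the hypoxia core on both strands, from 83 to 79 and from 82 to 78. The AP-1 site was in 6.75% of all windows, the CARE in 3.45%, the hypoxia core in 16.6%, the EGR site in 4.7% and the CArG box in 1.47%. A match describes the letters and does not show that a factor binds there, and the lack of one concerns these windows alone.

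Of the 9 genes, 6 were counted well enough to be fitted, and all 6 were higher in HF cells, in RNA and in footprints, with no overlap between HF and control libraries. The background for that count was 22.2% of 9145 genes called higher in HF RNA (21.4% called lower), and 22.4% of 8370 protein-coding genes called higher in HF footprints (20.9% lower), by edgeR's quasi-likelihood test at an adjusted p of 0.05. Every HF library lay above every control library for 25.9% of genes in RNA and 25.1% in footprints. Since the genes were selected with this contrast known, nothing is read from the 6 of 6. Vegfa, Inhba and Hbegf were counted well in all 12 libraries. Vgf, Fst and Areg had few counts in control cells and reached the minimum count through the HF libraries in both assays. A call for them could thus hardly go the other way. Areg footprints had 11 counts in each control library, but the minimum is scaled to library size. RPF control 1 and 2, at 4.46 and 6.74 CPM, lay below it. Gdf15, Stc1 and Stc2 stayed below the minimum in both assays.

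**Figure D1:**
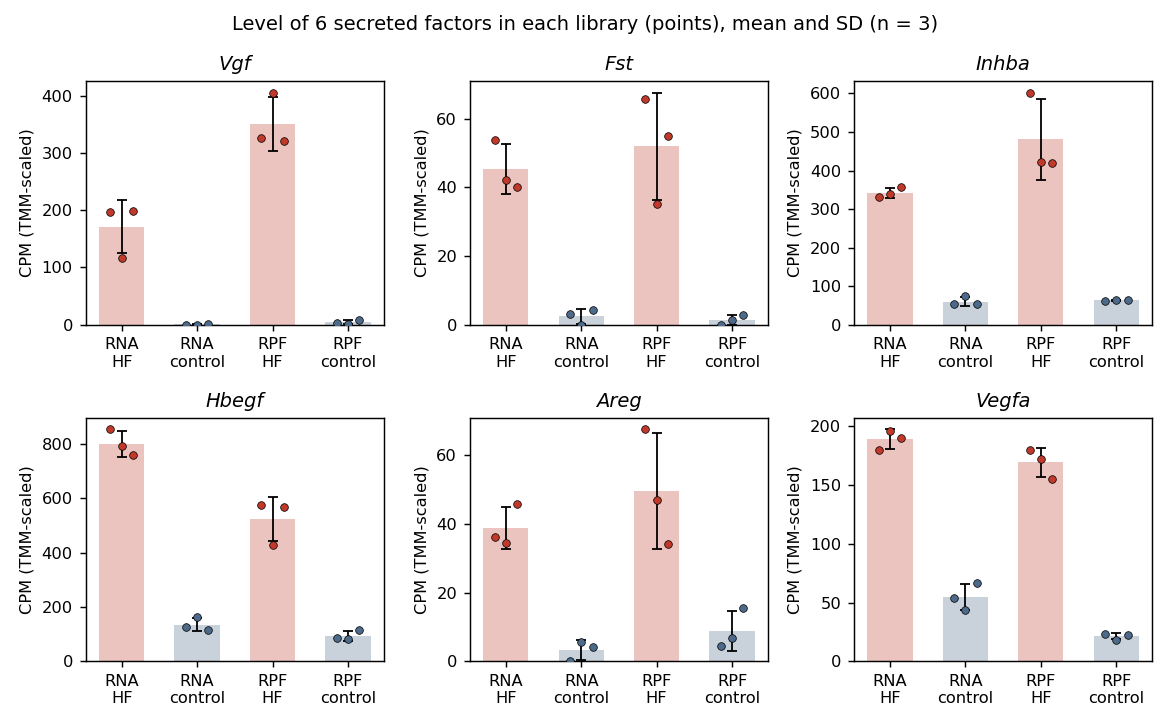
Level of each of the 6 fitted genes in every library, in CPM on linear axes that start at 0, for RNA HF, RNA control, RPF HF and RPF control (points are libraries, bars are group means and error bars are SD, n = 3). Each HF point lies above each control point of the same gene and assay, and the widest gaps are those of Vgf, with 0 to 2.1 CPM in RNA control libraries.

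Both EGF receptor ligands were higher in HF cells, in RNA and in footprints. Hbegf (ENSMUSG00000024486) had 854, 791 and 758 CPM in RNA HF libraries, against 128, 162 and 116 CPM in RNA control libraries. Its footprints were at 574, 430 and 569 CPM in HF libraries, against 85.2, 82.8 and 115 CPM in control libraries. The lowest HF library was thus several times above the highest control library in each assay. The log2 fold change was 2.58 (SE 0.12) in RNA and 2.53 (SE 0.15) in footprints, a 5.99-fold and a 5.76-fold difference. Translational efficiency (TE), the footprints of a gene relative to its RNA, differed by −0.04 on the log2 scale (SE 0.19), which was not called, and its sign turned under several alternatives.

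Areg (ENSMUSG00000029378, chromosome 5 from 91139599 to 91148432) was counted sparsely. RNA held 41, 35 and 78 counts in HF libraries (36.1, 34.4 and 45.9 CPM), against 0, 4 and 4 counts in control libraries (0, 5.64 and 4.2 CPM). Footprints held 120, 28 and 18 counts in HF libraries (67.5, 46.9 and 34.1 CPM), against 11, 11 and 11 counts in control libraries (4.46, 6.74 and 15.5 CPM). The groups did not overlap, but the closest pair of footprint libraries, RPF HF 3 and RPF control 3, were little more than 2-fold apart. The ratio of summed counts, HF over control, was 14.5 in RNA with a 95% counting interval of 7.18 to 34.2, and 8.33 in footprints with an interval of 5.71 to 12.5. With every count halved, because low counts in these tables are mostly even, the intervals were 5.51 to 55.3 and 4.55 to 13.5. These intervals cover counting error only. The fitted log2 fold change was 3.73 (SE 0.53) in RNA and 2.80 (SE 0.40) in footprints. The RNA value was 2.98 without RNA control 1 and 4.33 without RNA control 2, so single control libraries with 0 or 4 counts moved it by more than 1.5-fold. The TE difference was −0.97 (SE 0.76), and −0.20 or −1.57 without the same libraries, and was not called.

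The activin subunit and its antagonist were higher together. Inhba (ENSMUSG00000041324, chromosome 13 from 16004256 to 16031609) had 330, 340 and 356 CPM in RNA HF libraries, against 53.1, 73.3 and 53.6 CPM in RNA control libraries. Footprints of Inhba were at 602, 422 and 419 CPM in HF libraries, against 60.4, 65 and 63.2 CPM in control libraries. The HF libraries were close to each other in RNA, whereas RPF HF 1 stood above the other two in footprints. Mean levels were 342 ± 13.0 CPM in RNA HF and 60.0 ± 11.5 in RNA control libraries (SD, n = 3 each), and 481 ± 105 CPM in RPF HF and 62.9 ± 2.30 in RPF control libraries. The log2 fold change was 2.54 (SE 0.15) in RNA and 2.96 (SE 0.15) in footprints. The TE difference of 0.43 (SE 0.22) was not called, and was 0.21 without RPF HF 1.

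Fst (ENSMUSG00000021765, chromosome 13 from 114452262 to 114458989), which lies on the same chromosome as Inhba but far from it, went along in both assays with far fewer counts. Its RNA had 61, 43 and 68 counts in HF libraries (53.7, 42.2 and 40 CPM), against 4, 0 and 4 in control libraries (3.22, 0 and 4.2 CPM). Its footprints had 117, 21 and 29 counts in HF libraries (65.8, 35.1 and 55 CPM), against 0, 2 and 2 in control libraries (0, 1.23 and 2.81 CPM). Follistatin was thus near the limit of detection in control cells and plainly counted in each HF library. The ratio of summed counts was 16.2 in RNA (95% counting interval 8.04 to 38.1, or 6.18 to 61.5 with counts halved) and 69.2 in footprints (26.5 to 257, or 18.9 to 591 with counts halved). Fitted log2 fold changes were 4.00 (SE 0.50) in RNA and 5.80 (SE 0.57) in footprints. The footprint value was 4.85 without RPF control 1, the library with 0 counts, and 6.52 without RPF control 3. The TE difference of 1.78 (SE 0.97) was not called, and was 0.86 and 2.46 without those 2 libraries.

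Vegfa (ENSMUSG00000023951, chromosome 17 from 46016993 to 46032377) was higher in HF cells by more in footprints than in RNA. It had 180, 196 and 190 CPM in RNA HF libraries, against 53.9, 43.7 and 66.2 CPM in RNA control libraries. Its footprints were at 180, 172 and 155 CPM in HF libraries, against 23.5, 18.4 and 22.5 CPM in control libraries. Replicates of a group lay close together, and the HF groups were far from the control groups in both assays. Means were 189 ± 8.15 CPM in RNA HF and 54.6 ± 11.2 in RNA control libraries, and 169 ± 12.4 CPM in RPF HF and 21.5 ± 2.71 in RPF control libraries (SD, n = 3 each). The log2 fold change was 1.77 (SE 0.18) in RNA, a 3.42-fold difference, and 2.98 (SE 0.21) in footprints, a 7.89-fold difference. The TE difference was 1.21 (SE 0.28), with a range of 1.06 to 1.33 over 18 alternatives. Vegfa was the 1 gene of the 6 called higher in TE, where 6.12% of 7923 genes were called higher and 8.36% lower. The other 5 were not called in TE, which does not show that their TE was alike in HF and control cells.

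Vgf (ENSMUSG00000037428, chromosome 5 from 137025301 to 137033351) had the highest fold change of the 6 in each assay. Its RNA had 223, 119 and 338 counts in HF libraries (196, 117 and 199 CPM), against 0, 0 and 2 in control libraries (0, 0 and 2.1 CPM). Its footprints had 577, 242 and 169 counts in HF libraries (325, 405 and 320 CPM), against 8, 2 and 6 in control libraries (3.24, 1.23 and 8.43 CPM). The transcript of this neuropeptide precursor was thus at or near 0 counts in control cells, and RNA HF 2 was the lowest of the HF RNA libraries. The ratio of summed counts was 256 in RNA, with a 95% counting interval of 70.7 to 2120, and 102 in footprints, with an interval of 62.7 to 180. With counts halved the intervals were 45.8 to 10200 and 51.6 to 239. The fitted log2 fold change was 7.75 (SE 0.43) in RNA and 6.66 (SE 0.27) in footprints. The RNA value was 7.03 without RNA control 1 and 10.64 without RNA control 3, the library that held the 2 counts. The TE difference of −1.13 (SE 1.02) was not called, and was −0.41 and −4.29 without those 2 libraries, so it rested on the 2 control counts.

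Gdf15, Stc1 and Stc2 could not be compared at this depth. Gdf15 (ENSMUSG00000038508, chromosome 8 from 70629393 to 70632470) had 4 counts in RPF HF 1 and 0 in the other 11 libraries. A count of 0 over 3 libraries allows up to 0.778 CPM in RNA HF and 1.03 CPM in RNA control cells, taking 3 counts over the group as the limit, and up to 0.624 CPM in RPF control cells. With counts halved these limits were 1.56, 2.07 and 1.25 CPM. Stc1 (ENSMUSG00000014813, chromosome 14 from 69029289 to 69041401) had 0 counts in all 12 libraries, and its limit in RPF HF cells was 1.03 CPM, or 2.07 with counts halved. Stc2 (ENSMUSG00000020303, chromosome 11 from 31359441 to 31370061) had 0, 6 and 2 counts in RNA HF libraries, against 0, 0 and 2 in RNA control libraries. Its footprints had 0, 0 and 2 counts in HF libraries, against 2, 1 and 0 in control libraries. The ratio of summed Stc2 counts was 3.01 in RNA, with a counting interval of 0.602 to 29.1, and 1.10 in footprints, with an interval of 0.0923 to 9.64. With counts halved the intervals were 0.298 to 148 in RNA and 0.014 to 15.9 in footprints. All of these intervals include equal levels.

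**Figure D2:**
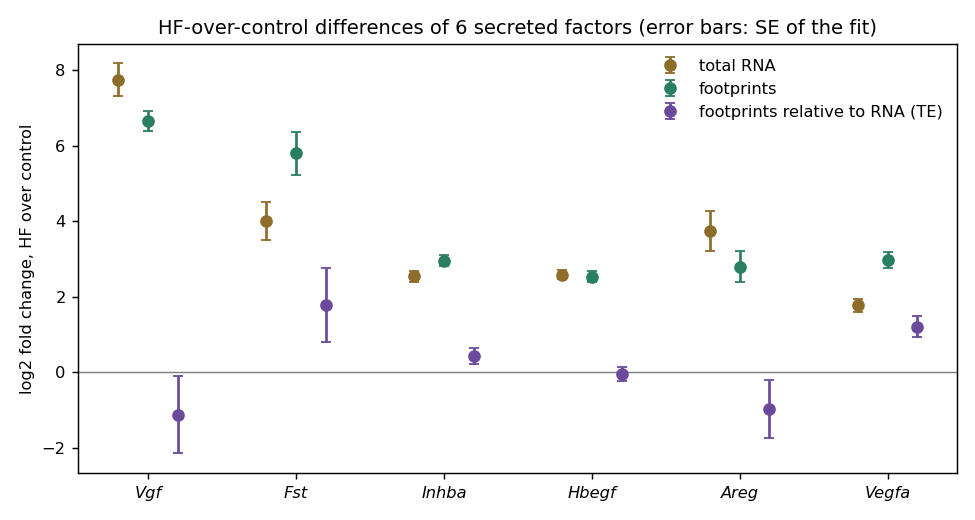
Log2 fold change of HF over control cells in RNA, in footprints and in TE for the 6 fitted genes, with bars of 1 SE. Vegfa lies at 1.77 in RNA and 2.98 in footprints, Hbegf at 2.58 and 2.53, and the TE bars of Vgf, Fst and Areg are the widest.

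The footprints of control cells set against their RNA do not use the HF contrast, and were tested. Vegfa, Hbegf and Inhba had the counts for it, and the other 6 genes did not. Vegfa had few footprints for its RNA in control cells, at −1.40 on the log2 scale relative to the median gene (SE 0.28, edgeR adjusted p = 3.6e-05), which was above 11.3% of 7877 genes. All 3 footprint libraries, at 18.4 to 23.5 CPM, lay below all 3 RNA libraries, at 43.7 to 66.2 CPM. The share of all genes with such a gap was not counted, and these CPM are not centred on the median gene. Over 12 alternatives the value ran from −1.65 to −1.20 and stayed past the threshold. Hbegf was lower too, at −0.59 (SE 0.17, edgeR adjusted p = 0.0032), with footprints at 82.8 to 115 CPM and RNA at 116 to 162 CPM. Inhba was at 0.04 (SE 0.21, edgeR adjusted p = 0.88), and its sign turned when single control libraries were left out. Of the genes tested, 30.5% were called higher and 28.4% lower, so 2 of 3 called lower is set against a high background. These control libraries are also those of the HF comparisons.

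The same ratio in HF cells is given as a description, added after the data were seen, on a scale where the median of 7188 genes is 0. Vegfa was at −0.35 (SE 0.15) there, and Hbegf at −0.81 (SE 0.11). Inhba was at 0.31 (SE 0.12), Vgf at 0.81 (SE 0.15), Areg at 0.21 (SE 0.27) and Fst at 0.06 (SE 0.26). Hbegf thus had the lowest value of the 6 in HF cells and Vgf the highest, while in control cells Vegfa had the lowest of 3. Whether the counted region takes in footprints outside the coding sequence, such as those on upstream reading frames, is not stated in the labels.

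**Figure D3:**
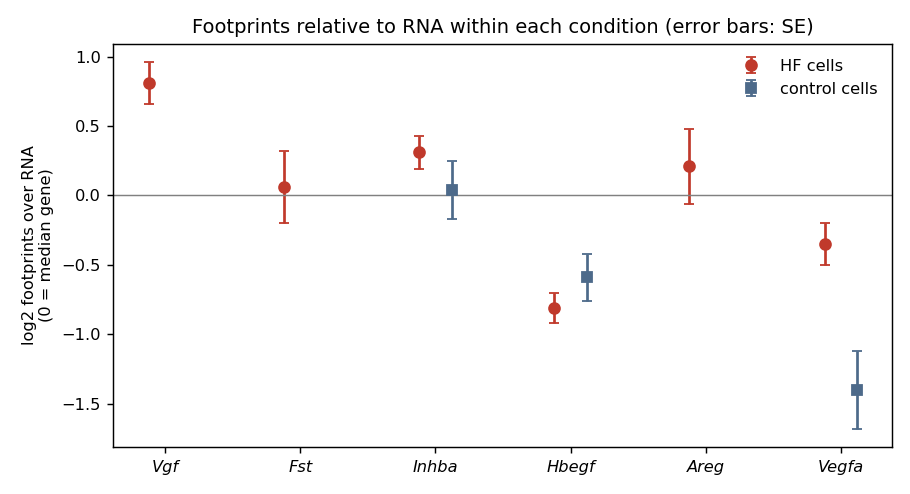
Footprints over RNA of the same cells, on the log2 scale relative to the median gene, in HF cells (6 genes) and in control cells (3 genes), with bars of 1 SE. Vegfa sits at −0.35 in HF cells and −1.40 in control cells, Hbegf at −0.81 and −0.59, and Inhba at 0.31 and 0.04.

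Across the 12 libraries, with log2 CPM centred within each assay, the 6 fitted genes had Pearson correlations with each other of 0.754 to 0.988. The points share libraries and the HF contrast that was known when the genes were chosen, and the values describe likeness only. Of 7673 well-counted genes, Inhba was most like Mgea5 (0.998), Mt2 (0.997) and Hist1h2ab (0.996). Mgea5 encodes the enzyme that removes O-GlcNAc from proteins, and Mt2 a metallothionein. Hbegf was most like the kinase gene Plk2 (0.995), the lipid droplet gene Plin2 (0.994) and the NF-kB subunit gene Nfkb2 (0.994). Vegfa was most like 1810013L24Rik (0.992), the matrix gene Tnc (0.989) and the splicing cofactor gene Son (0.988). Vgf was most like Hist1h2bb (0.988), Hist1h2bg (0.986) and Zfp367 (0.985), and counts of these histone genes are uncertain because near-identical copies share reads. Fst was most like Arid5a (0.973), Usp37 (0.971) and Jun (0.970), and Areg, with the fewest counts in HF RNA, most like Zmym4 (0.951), Ppp6r3 (0.950) and G2e3 (0.949).

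The other genes of these pathways were taken from lists drawn up from pathway knowledge, with earlier results of these data known. Their calls are edgeR calls over all genes tested, and the median gene of the whole table was at −0.02 in RNA and in footprints and at 0.00 in TE. Of all genes tested, 22.2% were called higher and 21.4% lower in RNA, and 22.4% and 20.9% in footprints. In TE these shares were 6.12% and 8.36%. Of 9 further EGF family ligands, 2 were fitted, and both rose in RNA and in footprints. The log2 fold change of Nrg1, a ligand of ErbB3 and ErbB4, was 3.62 (SE 0.23) in RNA and 2.78 (SE 0.19) in footprints. That of Ereg, epiregulin, which like Areg and Hbegf binds the EGF receptor, was 2.01 (SE 0.19) in RNA and 2.94 (SE 0.26) in footprints. The TE call of Ereg at 0.95 ended under 12 alternatives. Of 11 fitted EGF receptors, sheddases and feedback genes, 3 rose and 2 fell in RNA (list median 0.17), 2 rose and 3 fell in footprints (median −0.20), and 3 fell and none rose in TE. Egfr, the receptor of Areg and Hbegf, rose on the log2 scale by 1.77 (SE 0.23) in RNA and 1.04 (SE 0.16) in footprints. Erbb2, a ligandless partner of the EGF receptor, fell, at −0.65 (SE 0.19) in RNA and −1.75 (SE 0.26) in footprints, with a TE difference of −1.09 (SE 0.33) whose call ended in 2 of 18 alternatives. Cd9, a tetraspanin that associates with the Hbegf precursor, fell too, at −0.96 (SE 0.18) in RNA and −1.56 (SE 0.12) in footprints, and its TE call at −0.60 ended in 9 of 18 alternatives. Errfi1, an inhibitor of the EGF receptor, rose by 1.57 in RNA and 1.24 in footprints. Lrig1, which promotes degradation of ErbB receptors, rose by 0.57 in RNA and had a log2 fold change of −1.10 in footprints and a TE difference of −1.67 (SE 0.25), both called lower.

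Of 9 fitted activin ligands, receptors, binders and Smads, 2 rose and 1 fell in RNA (median 0.09), and 2 rose and 2 fell in footprints (median 0.08). Smad7, the feedback inhibitor of TGF-beta and activin receptors, rose by 1.02 in RNA and 1.16 in footprints, and the footprint call ended in 1 alternative. Smad3, which carries the activin signal, stood at 0.19 (SE 0.28) in RNA, which did not pass, and rose by 1.96 (SE 0.47) in footprints. The TE difference of Smad3 was 1.76 (SE 0.51), and its call ended in 1 alternative. Smad3 footprints, at 6.13 to 8.43 CPM in RPF control libraries, reached the minimum count through the HF libraries. A footprint call for Smad3 could thus hardly go the other way, and the TE fit used the same libraries. Smad4, the partner of Smad2 and Smad3, fell in footprints at −0.94 (SE 0.20), with a TE difference of −1.03. The receptor gene Acvr1 rose by 1.02 in RNA, did not pass in footprints at −0.61 (SE 0.28), and had a TE difference of −1.63 (SE 0.37). The follistatin-like gene Fstl1 fell in both, with log2 fold changes of −1.64 (SE 0.11) in RNA and −1.88 (SE 0.12) in footprints, the reverse of Fst. Inhbb, the gene of the other activin subunit, was not fitted.

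Of 10 fitted genes of the VEGF family, its receptors and oxygen sensing, 5 rose and 4 fell in RNA (median 0.40), and 4 of 8 rose and none fell in footprints (median 0.39). Egln2, an oxygen-sensing prolyl hydroxylase, fell by 1.92 in RNA (SE 0.27). Vegfd, a further family member, stood at −2.40 in RNA (SE 0.73), a call that ended in 3 of 11 alternatives, and at −7.05 without RNA HF 1 and −1.66 without RNA HF 3. With counts halved Vegfd fell below the minimum count and was not fitted. Vegfd had 8.8, 0 and 0 CPM in RNA HF libraries and reached the minimum count through the control libraries, so the call could hardly go the other way. The relative Vegfb fell by 1.37 in RNA (SE 0.24), against the higher Vegfa, and did not pass in footprints at −0.59 (SE 0.31). Vhl, which marks hypoxia-inducible factor for degradation, rose by 1.28 in RNA and 1.40 in footprints. Hif1a rose by 0.74 in RNA, stood at −0.03 (SE 0.13) in footprints and had a TE difference of −0.77 (SE 0.22), so its TE and that of Vegfa were called in different directions. The co-receptor Nrp1 rose by 0.92 in RNA and 0.50 in footprints. In footprints Arnt, the partner of Hif1a, rose by 0.92 (SE 0.20), and the receptor Flt1 rose by 0.44 (SE 0.15), a call that ended in 3 alternatives.

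Around the sparsely counted genes, Igf1r, the receptor of the growth factors that the stanniocalcins restrain, was at −0.05 (SE 0.14) in RNA and fell by 1.85 (SE 0.20) in footprints, with a TE difference of −1.80 (SE 0.25). Of 7 fitted stanniocalcin partners and IGF axis genes, 2 rose and 2 fell in RNA and 3 fell in footprints. The binding protein genes Igfbp7 and Igfbp4 fell in RNA, at −1.08 and −1.07, and Igfbp7 also in footprints, at −0.53. Igf2r rose by 0.52 in RNA, and its TE call at −0.53 ended in 4 alternatives. Stim1 stood at −1.62 in footprints, a call that ended in 3 of 10 alternatives. It fell below the minimum count, and was not fitted, with counts halved, without RPF control 1 and without RPF control 2. Stim1 had 5.06, 0 and 11.4 CPM in RPF HF libraries and reached the minimum count through the control libraries. The call could thus hardly go the other way. Pappa, the gene of the protease that stanniocalcins inhibit, had 40 counts over the RNA HF libraries and 1 over the RNA control libraries, a ratio of 30.1 with a counting interval of 5.11 to 1220, or 15.1 with an interval of 2.41 to 625 with counts halved. Of 5 fitted granins and prohormone processing genes, 2 fell and none rose in RNA and in footprints. Furin, a protease that cuts precursors of secreted proteins, fell in both, at −0.77 (SE 0.15) in RNA and −2.40 (SE 0.41) in footprints, with a TE difference of −1.64 (SE 0.38). Furin footprints, at 6.19 to 7.58 CPM in RPF HF libraries, reached the minimum count through the control libraries. A footprint call for Furin could thus hardly go the other way, and the TE fit used the same libraries. The amidating enzyme gene Pam also fell, at −1.06 in RNA and −1.21 in footprints. Of 12 genes that encode other growth differentiation factors or the GDF15 receptor and its partner Ret, 1 was fitted in RNA, Gdf11, which fell by 1.89.

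Among 43 other secreted growth factors, 24 were fitted in RNA, where 11 rose, 5 fell and 8 did not pass (median 0.56). In footprints 25 were fitted, and 12 rose, 3 fell and 10 did not pass (median 0.62). The neurotrophic factor gene Gdnf rose by 4.67 (SE 0.41) in RNA and 4.08 (SE 0.59) in footprints. The cytokine gene Lif rose by 3.15 (SE 0.22) in RNA and 4.08 (SE 0.41) in footprints. Gdnf had 279 RNA counts over the HF and 8 over the control libraries, and 88 and 8 in footprints. Lif footprints had 207 counts over the HF and 24 over the control libraries. Lif was at 4.97 in footprints without RPF control 1. Nog, a secreted antagonist of bone morphogenetic proteins, rose by 3.29 in footprints (SE 0.68), or 4.07 without RPF control 2. It did not pass in RNA at 1.29 (SE 0.56). Nog footprints had 48 counts over the HF and 8 over the control libraries. Gdnf in both assays, and Lif and Nog in footprints, thus reached the minimum count through the HF libraries. Such a call could hardly go the other way. In TE 5 of 23 rose and none fell, against 6.12% and 8.36% of all genes tested. The 5 included Clcf1 at 1.84 (SE 0.39), or 2.58 without RPF control 2, Fam3c at 1.42 (SE 0.34) and Hdgf at 0.76 (SE 0.18). Tgfb3 fell in both, at −2.74 in RNA and −1.83 in footprints, and so did Tgfb1, at −1.35 in RNA and −1.46 in footprints. Tgfb1 was at −2.09 in footprints without RPF HF 1. Tgfb3 had 4.71 to 8.8 CPM in RNA HF and 5.63 to 11.4 CPM in RPF HF libraries, and Tgfb1 3.79 to 11.3 CPM in RPF HF libraries. Tgfb3 in both assays, and Tgfb1 in footprints, thus reached the minimum count through the control libraries. These calls, too, could hardly go the other way.

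The TE of control cells was tested for the same lists, where 30.5% of all genes tested were called higher and 28.4% lower. Ereg had few footprints for its RNA, at −1.83 (SE 0.34), and Nrg1 many, at 0.89 (SE 0.36), a call that ended in 4 alternatives. With counts halved Nrg1 fell below the minimum count and was not fitted. Of 11 EGF receptors, sheddases and feedback genes, 5 were called higher and 3 lower, with Cd9 at 2.16, Egfr at 2.00, Adam17 at 0.77 and Errfi1 at −0.76. Of 9 activin pathway genes, 1 was higher and 4 were lower, with Smad3 at −2.43, Smad7 at −1.67, Tgfbr3 at −0.62 and Fstl1 at 0.49. Of 10 genes of the VEGF list, 3 were higher and 4 lower, and Vegfa, at −1.40, lay between Egln1 at −3.17 and Egln2 at −2.55 on one side and Nrp1 at 1.38 and Hif1a at 1.83 on the other. Gdf11 was at −2.79. In the IGF list, where 2 were higher and 1 lower, Igfbp4 was at −1.93, Igf2r at 1.45 and Igfbp7 at 1.05. Among prohormone processing genes, 2 higher and 2 lower, Furin was at −2.47, Pcsk7 at −1.43, Cpe at 1.13 and Cpd at 0.84. Of 19 other secreted growth factors, 4 were higher and 8 lower, with Fam3c at −2.39, Hdgf at −2.0, Clcf1 at −1.55 and Fgf10 at −1.42.

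**Figure D4:**
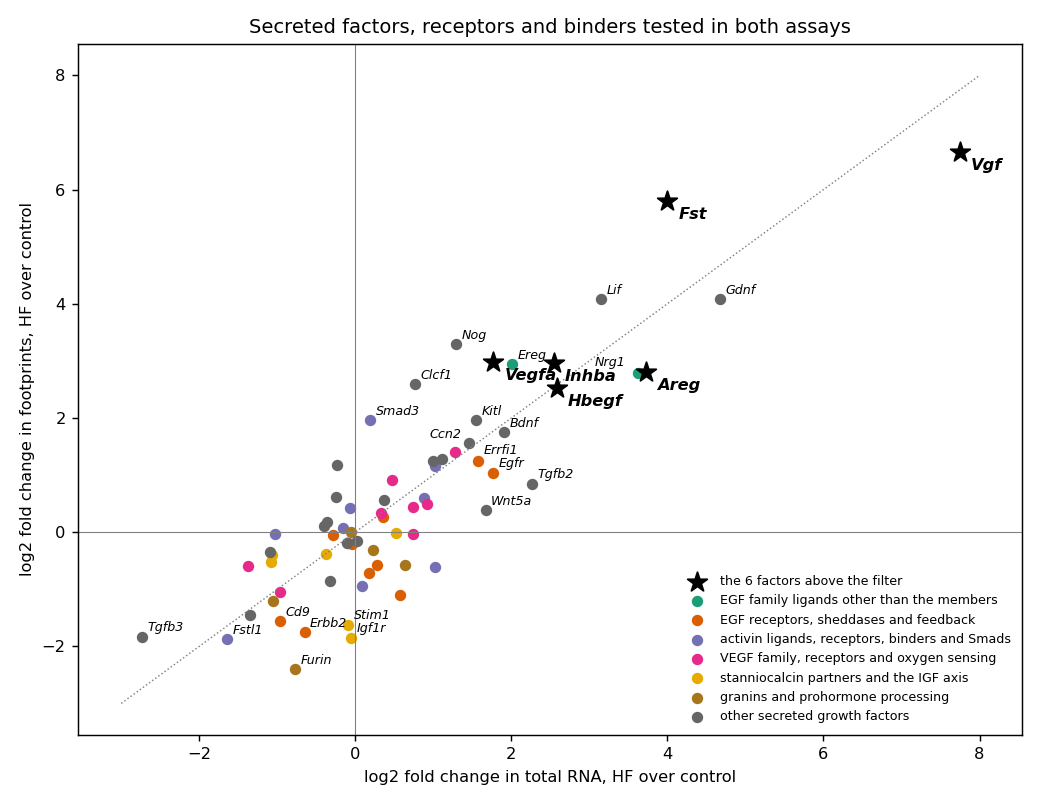
Log2 fold change of HF over control cells in footprints against that in RNA for the 6 genes and for the genes of the pathway lists fitted in both assays and reported here (coloured by list; the dotted line marks equal values). All 6 lie in the upper right, with Vgf farthest out, while Fstl1 and Tgfb3 lie in the lower left.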

How the data were processed

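Per the labels' protocols, alkaline hydrolysis fragmented the total RNA, and RNase I followed by a sucrose gradient gave monosomes, the source of the footprints. GRCm38, HTSeq, HISAT2 and Bowtie appear, without versions, per the submitters' processing notes. The authors deposited 1 table a library, of raw whole-number counts per gene. Which feature was counted, whether by strand, and how multiply mapped reads were treated is not given in the sources used here, so reads of overlapping or antisense genes cannot be told apart. Symbols were found for 55450 of 55536 gene IDs and a type for 38648, of which 21405 were protein-coding. The deposited counts held 0 entries that name no gene. Coordinates are those of RefSeq on GRCm38, counted from 1, and promoter sequences those of RefSeq on GRCm38.p6.

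The members and lists were chosen with earlier results of these data known. Tests were run with edgeR 4.0.16 (quasi-likelihood, TMM factors, filterByExpr with a minimum count of 10, Benjamini-Hochberg adjustment over all genes tested, threshold 0.05) in R 4.3.3. RNA was tested over every gene, footprints and TE over the protein-coding ones. The change in TE was the interaction of assay and treatment over the 12 libraries. TE within control cells was RPF control against RNA control, centred on the median gene, for genes with at least 10 counts in at least 2 libraries of each group. DESeq2 1.42.0 was an alternative. The scripts were tested on simulated data. CPM values come from the deposited counts and TMM factors. A fold change is the fitted one, not a ratio of mean CPM, and is relative to the bulk of genes. Counts from 1 to 20 were even in 64.6% to 80.3% of cases per library, with no reason stated, so halved counts were tried too. Ratios of summed counts carry exact conditional binomial intervals at 95%. Replicates differed beyond sampling noise in every group, with a chi-square per degree of freedom of 1.13 to 2.22 on halved counts, and were kept as separate libraries. Named genes were all 9 members, the receptors, partners or inhibitors of members, up to 4 called genes with the largest fold change per list and comparison, and the 3 genes most like each member over the 12 libraries among those whose log2 CPM (prior count 0.5) averaged 3 or more in both assays. A gene of the pathway lists is counted in its list but is not reported here.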

Additional observations from a re-analysis of the deposited data

How the results depend on the processing

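Alternatives were other scalings, no filter on low counts, DESeq2, counts halved, a replicate block and each library left out. Of the members' values under them, 287 kept direction and side of the threshold and 7 turned sign, all of them near 0 and not called. The Hbegf TE difference between HF and control cells (−0.04) was 0.01 with counts halved and ran from −0.19 to 0.06 when a library was left out, with 0.05 without RNA control 3, 0.06 without RPF control 3 and 0.05 without RPF HF 2. The Inhba TE within control cells (0.04) ran from −0.12 to 0.21, with −0.01 without RNA control 1, −0.07 without RPF control 1 and −0.12 without RPF control 2. The cause was not tested. No count of calls over all genes tested moved by over 1.5 times. Of the counts of calls in the short pathway lists, 815 stayed within that and 65 did not, as where the TE call of Ereg ended. With the replicate block, 2005 genes were called higher and 1928 lower in RNA, against 1817 and 1728 in footprints. The TE interaction gave 457 and 628, and TE within control cells 2366 and 2188. Libraries with the same number in HF and control cells had correlated deviations of −0.01 to 0.01 in RNA and 0.00 to 0.01 in footprints, so the numbers were not read as pairs. Of 6 libraries, 3 in RNA and 1 in footprints correlated best with their own number. Among 135 calls of genes in the pathway lists, 24 ended under at least 1 alternative and none reversed. Alternatives in which a gene fell below the minimum count, or had no adjusted p, were left out of this tally. Depth limits the comparison of Gdf15, Stc1 and Stc2, and the control values of Vgf, Fst and Areg.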
